A study of Canis lupus familiaris with 33 samples.

Results

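MYC, a transcription factor gene on dog chromosome 13, was described across oligodendroglioma and healthy brain of dogs. The gene was found by position. The rule asked for genes on chromosome 13 whose lowest start coordinate, on either strand, lies between 25.15 and 25.25 Mb (CanFam3.1) and that have 2 or more separate exons. Of 30951 genes in the count table, 5 met it, and the one with the highest total count was taken as MYC, as the rule asked. This gene, ENSCAFG00000001086, lies at 25200577 to 25205309 on the plus strand, and its counts summed to 15943 over all libraries. The other 4 genes are treated as neighbours. The choice by summed count drew on the tumours: in the controls alone MYC had 1545 counts and one of the 4, a 9-exon gene, had 2621, while in the tumours they had 14398 and 4965. The deposited table gives identifiers without names, and 0 of them could be matched to a symbol in RefSeq's gene list for another assembly (UU_Cfam_GSD_1.0), so the name rests on the position. RefSeq places MYC on the same chromosome 13, as a protein-coding gene whose nearest listed neighbours on both sides are long non-coding RNAs (LOC111098448 before it and LOC102151812 after it). The gene model found by the rule has 3 exons of 609, 766 and 563 bp, separated by introns of 1672 and 1123 bp, and no other annotated gene overlaps its span on either strand.

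MYC encodes a basic helix-loop-helix leucine zipper protein that binds E-box DNA together with its partner MAX and raises transcription of genes for growth, ribosome production and cell division. Its RNA and protein are short-lived and are normally kept low in mature, non-dividing tissue such as adult brain. MYC is one of the best known oncogenes, and in brain it is high in dividing progenitor cells.

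The study compared formalin-fixed paraffin-embedded (FFPE) with fresh-frozen tissue in 33 RNA sequencing libraries of 25 dogs sampled at necropsy. The 11 FFPE oligodendrogliomas came from 6 French Bulldogs, 4 Boxers and 1 Pomerian, with stated ages of 4.7 to 12 years in 9 of them, and 2 of the 11 were grade II and the rest grade III. The 10 FFPE healthy brains came from 5 French Bulldogs, 4 Boxers and 1 Bolonka Swetna, aged 2 to 8 years where stated (5 dogs). The 6 fresh-frozen tumours came from 3 French Bulldogs and 1 each of Boxer, Pomerian and Border Terrier (4.7 to 10 years, 5 stated), and 1 was grade II. The 6 fresh-frozen healthy brains came from 2 French Bulldogs and 1 each of Hovawart, Mongrel, Berner sennenhund and Bolonka Swetna (2.8 to 10.2 years, 5 stated). Library preparation was the same for all groups, per the labels, and 5 tumour dogs and 3 control dogs gave a library of each kind. Tissue was taken at varying times after death, and neither the brain region of the controls nor the share of tumour cells is stated in the labels. In bulk tissue a change in the mix of cells and a change of RNA per cell cannot be told apart.

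Total counts ran from 406406 to 32584840 in FFPE libraries and from 9765907 to 26726025 in fresh-frozen libraries. The mitochondrial share of counts was 9.61% to 40.3% in FFPE and 4.06% to 23.3% in fresh-frozen tissue. In fresh-frozen tissue the libraries of dogs 60126, 60127, 60461 and 60462 (2 tumours and 2 controls) lay apart from the other 8 on component 2 of a principal component analysis within groups (23.3% of the variance). The main results in fresh-frozen tissue are also given without them, from 4 tumours and 4 controls. Component 1 of the same analysis (34.6% of the variance) had the tumours of dogs 60127, 60636 and 60679 below 0. Those of dogs 60461, 60631 and 60749 lay above 0 on it.

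MYC was higher in tumour than in healthy brain in both kinds of tissue, by 4.55-fold in FFPE (95% interval 2.39 to 8.63) and 11.1-fold in fresh-frozen material (5.46 to 22.6). MYC was taken over its 9-exon neighbour by a summed count that the tumours decided. The intervals and p-values of all its tumour comparisons are therefore not free of that choice. Levels are given in CPM, the count scaled to a common library total, on a common scale for all 33 libraries. In FFPE tumours MYC ran from 10.8 CPM (dog 44331) over a median of 95.8 to 125 CPM (dog 60177). In FFPE controls it ran from 6.46 CPM (dog 60126) over a median of 12.9 to 44.8 CPM (dog 61478). The FFPE groups overlapped: 8 of 11 tumours lay above every control, and the tumours of dogs 44331, 60127 (16.6 CPM) and 60679 (38.2 CPM) did not. As background, 3.38% of the 13338 genes tested in FFPE tissue had at least 8 tumours above every control.

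Most FFPE tumours sat close together, with 6 of the 11 between 95.8 and 125 CPM, and the spread came from a tail of low tumours. On the log2 CPM scale the mean level was 5.95 ± 1.19 in FFPE tumours (SD, n = 11) and 3.74 ± 0.98 in FFPE controls (SD, n = 10). The fitted log2 fold change was 2.18 ± 0.45 (SE; 95% interval 1.26 to 3.11; edgeR adjusted p = 0.00269). Genes called higher at an adjusted p under 0.05 in this comparison made up 10.1% of those tested (21.1% were called in either direction), and 0.885% of tested genes had a larger log2 fold change than MYC. The 2 highest controls were both Boxers. The control of dog 50315 had 38.5 CPM from 13 counts in the shallowest library, with a 95% Poisson interval of 20.5 to 65.8 CPM, while that of dog 61478 had 44.8 CPM from 191 counts (38.6 to 51.6 CPM). These intervals cover counting error only.

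In fresh-frozen tissue the groups were fully apart. MYC ran from 27.9 CPM (dog 60636) over a median of 59.4 to 177 CPM (dog 60461) in tumours, and from 5.005 CPM (dog 60462) over a median of 6.46 to 12.8 CPM (dog 60516) in controls. All 6 tumours lay above all 6 controls, a pattern held by 6.34% of the 15057 genes tested in fresh-frozen tissue. On the log2 CPM scale the 6 tumours averaged 6.03 ± 1.05 and the 6 controls 2.86 ± 0.52 (SD). The fitted log2 fold change was 3.47 ± 0.48 (SE; 95% interval 2.45 to 4.50; edgeR adjusted p = 0.000919), where 30.5% of tested genes were called in either direction, 18.3% were called higher and 0.877% had a larger log2 fold change. It was 2.93 ± 0.48 without the 4 libraries that lay apart (SE; edgeR adjusted p = 0.0284). Within those 4 libraries it was 4.34 ± 0.87 (SE; edgeR adjusted p = 0.112). Counts of MYC were 88 to 233 in fresh-frozen controls and 618 to 4564 in tumours, so counting error was small against the spread between dogs.

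**Figure D1:**
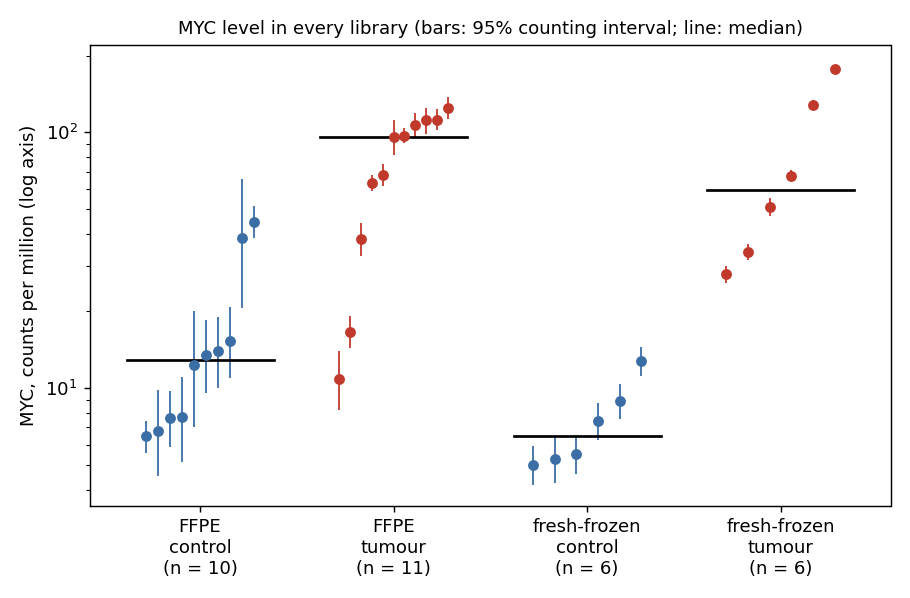
MYC level in CPM (log axis) in every library, ordered by level within each of the 4 groups; points are libraries, vertical bars are 95% Poisson intervals of the count, and horizontal lines are group medians (12.9, 95.8, 6.46 and 59.4 CPM from left to right). The fresh-frozen groups do not overlap, whereas 3 of 11 FFPE tumours fall among the FFPE controls.

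The level of MYC relative to other genes was read per base of exon. Only the 15714 genes that passed the filter on low counts over all libraries were ranked. Among them, MYC per exonic length stood at a median percentile of 90.2 in FFPE tumours (range 36.5 to 93.0) and 43.6 in FFPE controls (29.2 to 77.0). The corresponding percentiles were 82.5 in fresh-frozen tumours (63.5 to 94.2) and 32.4 in fresh-frozen controls (28.8 to 43.1). MYC was thus below the median of these filtered genes in all 6 fresh-frozen controls, and above it in all 6 fresh-frozen tumours.

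Whether the tumour difference itself depended on preservation was tested in 1 fit over all 33 libraries. The log2 fold change was smaller by 1.15 ± 0.66 in FFPE tissue (FFPE minus fresh-frozen, -1.15; SE; 95% interval -2.49 to 0.19; edgeR adjusted p = 1.00 as rounded from 0.999934, unadjusted p = 0.0914). The interval holds 0 and also a much smaller change in FFPE, so neither likeness nor a difference was shown. In this test 0% of 15714 genes passed with edgeR, 575 had an unadjusted p under 0.05, and DESeq2 and limma voom called 7 and 2 genes, none of them MYC. Without the 4 fresh-frozen libraries that lay apart the value was -0.75 ± 0.74 (SE; edgeR adjusted p = 1.00 as rounded from 0.999983).

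The 8 dogs with both libraries allow the preservations to be set side by side. In the tumours, MYC was 97.2 CPM in FFPE and 177 CPM in fresh-frozen tissue of dog 60461, 63.5 and 51.0 CPM in dog 60749, and 38.2 and 67.8 CPM in dog 60679. It was 16.6 and 34.1 CPM in dog 60127, and 68.3 and 27.9 CPM in dog 60636, the widest gap among the tumours on the log2 scale. Dog 60461 ranked first of the 5 tumours in both preservations while dog 60636 ranked 2 in FFPE and 5 in fresh-frozen tissue. In the controls, MYC was 7.61 and 7.42 CPM in dog 60460, 6.46 and 5.51 CPM in dog 60126, and 12.3 and 5.005 CPM in dog 60462, whose FFPE value rests on 16 counts.

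Over these 8 dogs MYC was higher in FFPE tissue in 5 dogs and higher in fresh-frozen tissue in 3. The mean log2 difference (FFPE minus fresh-frozen) was 0.05 ± 0.92 (SD, n = 8). The fit with tissue but no term for the dog gave a log2 fold change of -0.10 ± 0.39 (SE, 95% interval -0.93 to 0.73, edgeR adjusted p = 0.922). MYC was not called, while 2.95% of 17097 genes were. With the dog as a block the value was -0.03 ± 0.27 (SE, 95% interval -0.62 to 0.56, edgeR adjusted p = 0.957). There 655 of 17097 genes were called, and MYC was not. In the 4 dogs whose fresh-frozen libraries did not lie apart, the fit without the dog gave 0.17 ± 0.33 (SE, edgeR adjusted p = 0.924). The sign of this small value therefore depends on the dogs used. Among the 5 tumour dogs the log2 difference had an SD of 1.00. Every tumour library of these dogs, FFPE or fresh-frozen, lay above every control library of these dogs. The FFPE controls of dogs 61478 (44.8 CPM) and 50315 (38.5 CPM), which lay above some of these tumour libraries, are not in this set. The share of all genes with this pattern was not computed.

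**Figure D2:**
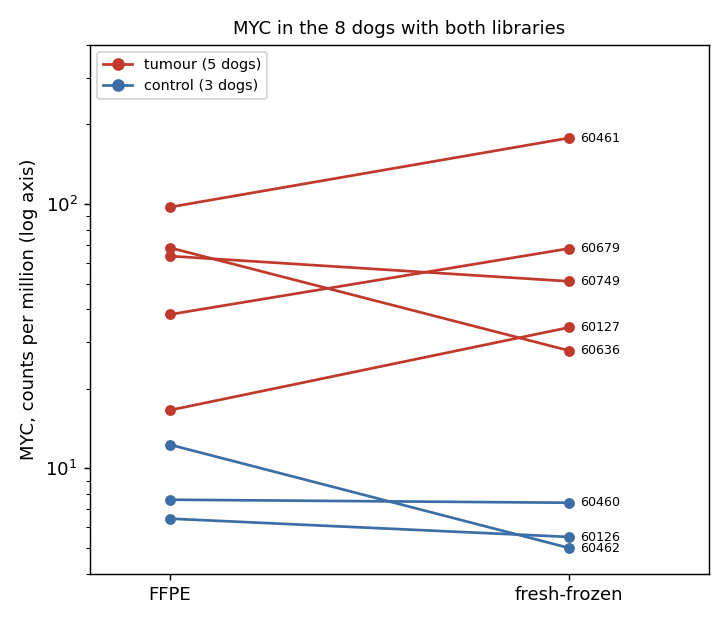
MYC level in CPM (log axis) in FFPE and fresh-frozen tissue of the 8 dogs with both libraries; lines join the 2 libraries of 1 dog. The 5 tumour dogs (16.6 to 177 CPM) lie above the 3 control dogs (5.005 to 12.3 CPM), and lines of the tumours cross. The FFPE controls highest in MYC (dogs 61478 and 50315) have no fresh-frozen library and are not shown.

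The genes around MYC were mostly near silent. Within 1 Mb of its start the annotation holds 15 other genes, of which 13 had fewer than 100 counts summed over all 33 libraries. The 4 other genes that met the position rule are among the 15. A 2-exon gene at 25195342 to 25198970, 1606 bp before MYC, had 39 counts in all libraries. A gene model of 13 short exons at 25199926 to 25200262, which ends 314 bp before the first exon of MYC on the same strand, had 36 counts, 20 of them in fresh-frozen tumours and 3 in fresh-frozen controls. MYC itself had 10420 and 895 counts in the same groups. A 3-exon gene on the minus strand at 25249305 to 25252460 had 50 counts. These 3 genes were too low to be tested in either tumour comparison.

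The remaining neighbour, a 9-exon gene at 25249066 to 25438884 on the same strand, 43756 bp after the end of MYC, was the only other gene within 1 Mb with enough counts for the tumour comparisons. It ran from 9.51 over a median of 22.9 to 46.3 CPM in FFPE tumours and from 9.99 over 14.6 to 35.5 CPM in FFPE controls. In fresh-frozen tissue it ran from 9.25 over 25.1 to 60.0 CPM in tumours and from 7.72 over 14.2 to 26.2 CPM in controls, so that tumours and controls overlapped in both preservations. Its log2 fold change was 0.54 ± 0.29 in FFPE (SE; 95% interval -0.06 to 1.15; edgeR adjusted p = 0.185) and 0.95 ± 0.44 in fresh-frozen tissue (SE; 95% interval 0.00 to 1.90; edgeR adjusted p = 0.113), short of the threshold in both. Without the 4 libraries that lay apart the fresh-frozen value was 0.38 ± 0.51 (SE; edgeR adjusted p = 0.596). Its highest fresh-frozen library, dog 60461, was also the highest for MYC.

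MYC and this neighbour were then compared within each library. The log2 CPM of MYC minus that of the neighbour averaged 1.48 ± 0.80 in FFPE tumours (SD, n = 11) and -0.22 ± 0.75 in FFPE controls (SD, n = 10). It averaged 1.48 ± 0.64 in fresh-frozen tumours and -0.98 ± 0.91 in fresh-frozen controls (SD, n = 6 each). The means of tumours and controls differed by a log2 value of 1.69 in FFPE and 2.46 in fresh-frozen tissue, and by 2.50 in fresh-frozen tissue without the 4 libraries that lay apart. These values are given as a description, without their permutation p-values, because MYC was taken over this neighbour by a summed count that the tumours decided.

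Further out, the next tested genes on either side were called higher in both preservations. Before MYC, a 3-exon gene at 23337788 to 23346304 had log2 fold changes of 1.41 ± 0.33 in FFPE and 2.46 ± 0.43 in fresh-frozen tissue (SE; edgeR adjusted p = 0.00627 and 0.00259). An 8-exon gene at 23078173 to 23288304 had values of 1.02 ± 0.34 and 1.27 ± 0.36 (edgeR adjusted p = 0.0330 and 0.0202), the second being 1.22 ± 0.47 without the 4 libraries that lay apart (edgeR adjusted p = 0.0968). After MYC, ENSCAFG00000037037 (26385091 to 26681046, 13 exons), which starts 1185 kb from the start of MYC, had the larger log2 fold changes of 3.84 ± 0.88 in FFPE and 4.66 ± 0.81 in fresh-frozen tissue (SE; edgeR adjusted p = 0.00506 and 0.00241). The distance without a tested gene before MYC was therefore 1863 kb, measured between starts.

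MYC was then set against the first 38 Mb of its chromosome, where more genes were called higher than lower. Without MYC, 168 genes of this stretch were tested in FFPE tissue, of which 44 were called higher and 11 lower. Their log2 fold changes had a median of 0.53. Over all genes 10.1% were called higher and 11.1% lower. In fresh-frozen tissue 62 of 187 were called higher and 18 lower, with a median of 0.66, beside 18.3% higher and 12.2% lower over all genes. Without the 4 libraries that lay apart 28 of 188 were called higher and 8 lower, with a median of 0.46, beside 8.74% higher and 6.42% lower over all genes. The medians over all tested genes were 0.02 in FFPE and 0.10 in fresh-frozen tissue. MYC stood near the top of this stretch, with 5 of the 168 genes above it in FFPE and 5 of the 187 above it in fresh-frozen tissue. The lean to higher calls was not particular to this stretch. Over the whole of chromosome 13, MYC left out, 69 of 259 tested genes were called higher and 20 lower in FFPE, with a median of 0.51. In fresh-frozen tissue 102 of 287 were called higher and 30 lower, with a median of 0.66.

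**Figure D3:**
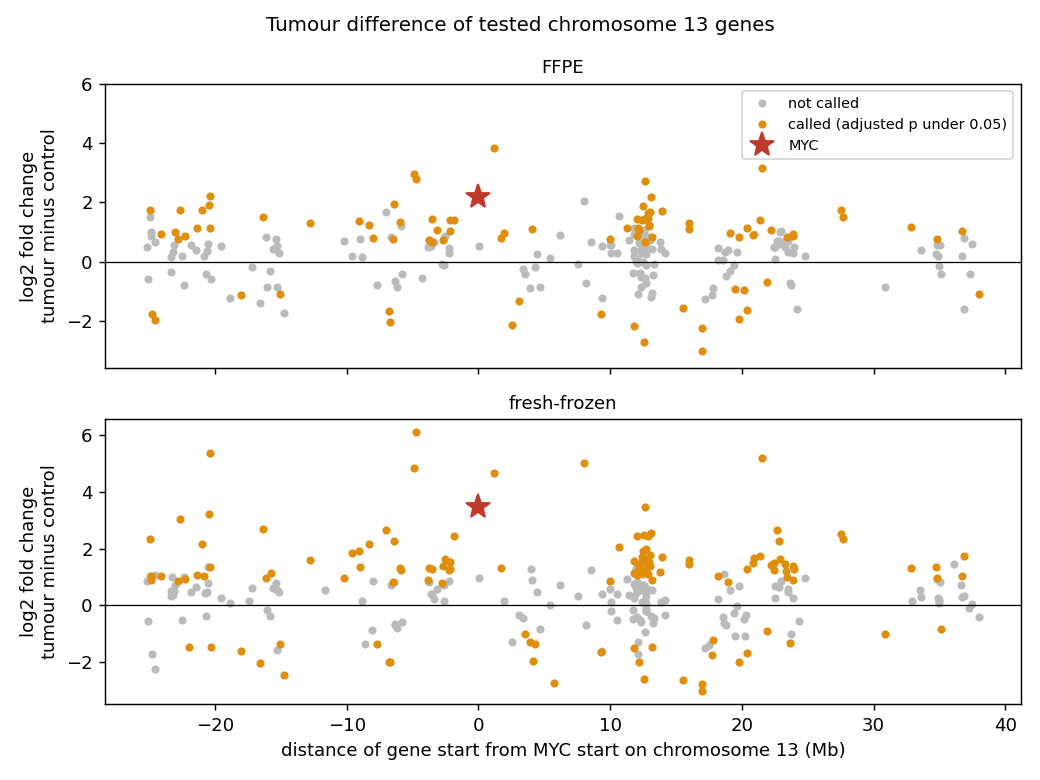
Log2 fold change (tumour minus control) of every tested chromosome 13 gene against the distance of its start from that of MYC in Mb, for FFPE (top) and fresh-frozen tissue (bottom); orange points passed the edgeR test at an adjusted p under 0.05, and the star is MYC. MYC (2.18 and 3.47) lies above most of its chromosome and below ENSCAFG00000037037, the gene 1185 kb further on (3.84 and 4.66).

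A chromosome 13 shift was computed for each library as the median deviation of the genes below 38 Mb, MYC left out, from the midpoint of tumours and controls, minus the same median over all genes. The shift ran from -0.33 over a median of 0.27 to 0.89 in FFPE tumours and from -0.33 over -0.25 to 0.13 in FFPE controls. It ran from -0.11 over 0.12 to 0.81 in fresh-frozen tumours and from -0.31 over -0.24 to -0.16 in fresh-frozen controls. Of the 11 FFPE tumours 3 had a shift below 0, and these were dogs 44331, 60127 and 60679, the same 3 whose MYC did not exceed every control. In fresh-frozen tissue dogs 60127, 60636 and 60679 had a shift below 0, and their MYC (34.1, 27.9 and 67.8 CPM) was above every control. The same 3 tumours lay below 0 on component 1 of the fresh-frozen libraries, and the relation of the shift to that component was not tested.

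As a description, the tumour change of MYC was larger than the median shift of the first 38 Mb of its chromosome. The summed count that picked MYC was decided by the tumours, which favours a gene with a large tumour change. The p-values here are therefore not free of that choice and are no independent support. In FFPE the mean difference in log2 CPM was 2.11 for MYC and 0.46 for the shift. MYC minus the shift was higher in tumours by 1.65 (two-sided exact permutation over 352716 splits, p = 0.00179, adjusted p = 0.00433), and 6 of 11 tumours exceeded all controls. In fresh-frozen tissue the differences were 3.22 for MYC and 0.50 for the shift. MYC minus the shift was higher by 2.71 with 6 of 6 tumours above every control (two-sided exact permutation p = 0.00216, adjusted p = 0.00433). This p is the smallest that 6 against 6 libraries can give. The share of all genes with as many tumours above every control on this measure was not computed in either preservation. For the plain level in fresh-frozen tissue, 6.34% of genes had all tumours above all controls. Adjusted permutation p-values are over 6 relations, which include the differences from the 9-exon neighbour, whose own p-values are not given. Without the 4 libraries that lay apart the value was 2.33 (exact permutation, adjusted p = 0.0343).

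Within the tumours, libraries with a larger chromosome 13 shift tended to have more MYC in FFPE tissue, but the relation rested on few dogs. Over the 11 FFPE tumours Pearson's r was 0.69 (permutation p = 0.0174, adjusted p = 0.0209) and Spearman's rho was 0.47 (permutation p = 0.145, adjusted p = 0.173). Pearson's r was 0.76 without dogs 60749 and 44331, the 2 farthest from the median shift. It no longer passed without dog 44331 alone (r = 0.51, adjusted permutation p = 0.167) or without dog 60127 alone (r = 0.64, adjusted permutation p = 0.0679). Over the 6 fresh-frozen tumours r was 0.60 (exact permutation p = 0.215, adjusted p = 0.215) and rho was 0.66 (exact permutation p = 0.175, adjusted p = 0.175). It was 0.90 over the 4 left without dogs 60749 and 60461. Without dog 60749 alone, the tumour with the largest shift in both preservations (0.89 and 0.81), r was 0.91 (adjusted exact permutation p = 0.0174).

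The 2 FFPE tumours lowest in MYC also had the highest mitochondrial shares among FFPE tumours. The mitochondrial share was 34.6% in dog 60127 and 31.96% in dog 44331, and that of dog 60679 was 25.5%. Other tumours had similar shares with much MYC: dog 50416 had 31.6% with 111 CPM of MYC, and dog 60177 had 29.1% with 125 CPM, the highest level of the FFPE tumours. In fresh-frozen tumours the library of dog 60127 had 23.3% against 4.06% to 8.92% in the other 5. The part of the mitochondrial share in the MYC level was not tested. Dog 60636, whose fresh-frozen tumour had less MYC than its FFPE block, had a chromosome 13 shift of 0.47 in FFPE and -0.11 in fresh-frozen tissue. Its pair of libraries also had the lowest correlation of all 8 dogs between their deviations from the group means over genes (0.08, against 0.13 to 0.74 in the other dogs).

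**Figure D4:**
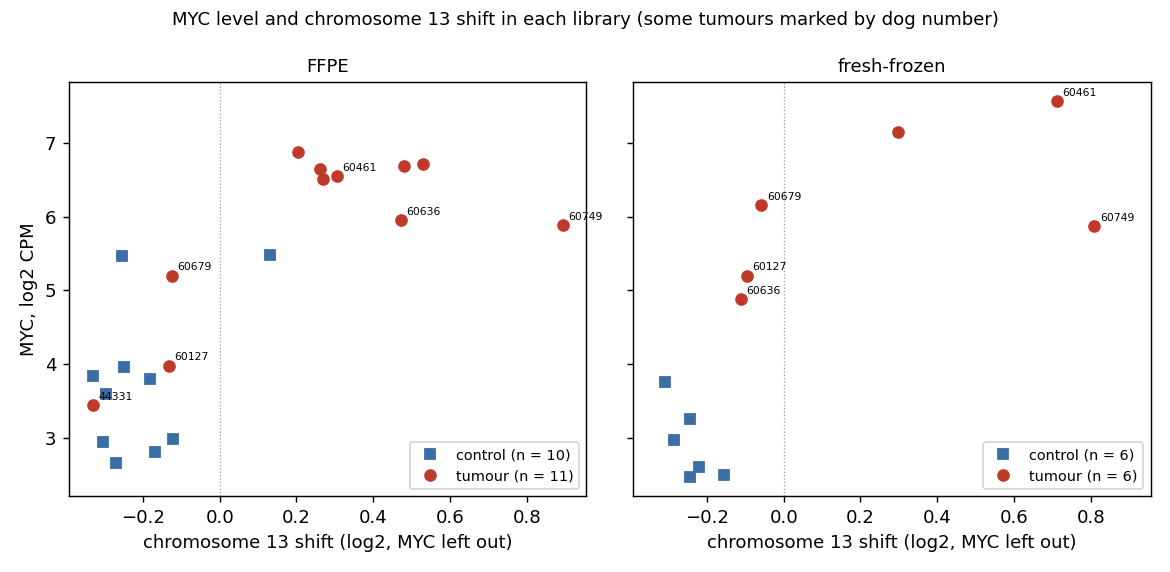
MYC level (log2 CPM) against the chromosome 13 shift (log2 units, MYC left out) in each FFPE library (left) and fresh-frozen library (right); circles are tumours, squares controls, and the dotted line marks a shift of 0. The 3 FFPE tumours left of 0 (44331, 60127 and 60679) are those with MYC within the range of the controls, and dog 60749 has the largest shift on both sides.

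Breed was compared in FFPE tissue, where Boxers and French Bulldogs each gave at least 4 libraries per tissue. MYC ran from 95.8 over a median of 102 to 111 CPM in the 4 Boxer tumours and from 10.8 over 65.9 to 125 CPM in the 6 French Bulldog tumours. The Boxer tumours were alike and lay inside the range of the French Bulldog tumours. The log2 difference (Boxer minus French Bulldog) was 0.59 ± 0.50 in tumours (SE; 95% interval -0.45 to 1.62; edgeR adjusted p = 0.999). In controls MYC ran from 7.66 over 25.95 to 44.8 CPM in 4 Boxers and from 6.79 over 12.3 to 15.3 CPM in 5 French Bulldogs. That difference was 1.23 ± 0.56 (SE; 95% interval 0.08 to 2.39; unadjusted edgeR p = 0.0376, adjusted p = 1.00 as rounded from 0.999998), and 0.69 without the control of dog 61478. In either breed comparison 0% of 14760 genes passed with edgeR, while DESeq2 called 2 genes in tumours and 3 in controls. Unadjusted edgeR p-values lay under 0.05 for 403 and 501 genes.

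Within breeds, MYC rose in tumours of French Bulldogs, with a fitted log2 value of 2.62 ± 0.52 (SE; edgeR adjusted p = 0.00953). There 7.06% of genes were called, 4.04% higher and 3.01% lower. In Boxers the value was 1.97 ± 0.59 (SE; unadjusted edgeR p = 0.00299, adjusted p = 0.259), where 0% of genes passed with edgeR and 2229 had p under 0.05 before adjustment. DESeq2 called 219 genes in Boxers, MYC among them (log2 fold change 2.01, DESeq2 adjusted p = 0.0395). The difference between breeds in the tumour change was -0.65 ± 0.75 (Boxer minus French Bulldog, SE; 95% interval -2.21 to 0.91; edgeR adjusted p = 1.00 as rounded from 0.999982) and was not shown. Grade could only be described: the 2 grade II FFPE tumours had 38.2 and 112 CPM and the 9 grade III tumours 10.8 to 125 CPM, and the grade II tumour in fresh-frozen tissue had 67.8 CPM.

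The tumour difference of MYC was positive in all settings tried in both preservations. Its log2 fold change was 2.18 in FFPE and 3.47 in fresh-frozen tissue in the main fits. When scaling, tool, filter, covariates or the set of dogs was altered, it ran from 2.21 to 2.87 and from 2.93 to 4.34. With each library left out in turn it ran from 2.08 to 2.56 and from 2.99 to 3.64. In the FFPE breed fit it was 1.97 in Boxers. The FFPE call was lost with age in the fit and in the smallest set of dogs. With age as a covariate, in the 14 libraries with a stated age, the value was 2.84 ± 0.76 (SE; edgeR adjusted p = 0.0866), and in the same libraries without the covariate it was 2.61 ± 0.64 (SE; edgeR adjusted p = 0.0303). Dog 60461 has no age on its FFPE label, and with the 8.8 years of its fresh-frozen label 15 libraries gave 2.87 ± 0.76 with the covariate and 2.63 ± 0.64 without it (SE; edgeR adjusted p = 0.0796 and 0.0252). In the 8 dogs with both libraries it was 2.69 ± 0.57 in FFPE (SE; edgeR adjusted p = 0.102) and 3.60 ± 0.67 in fresh-frozen tissue (SE; edgeR adjusted p = 0.0405).

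**Figure D5:**
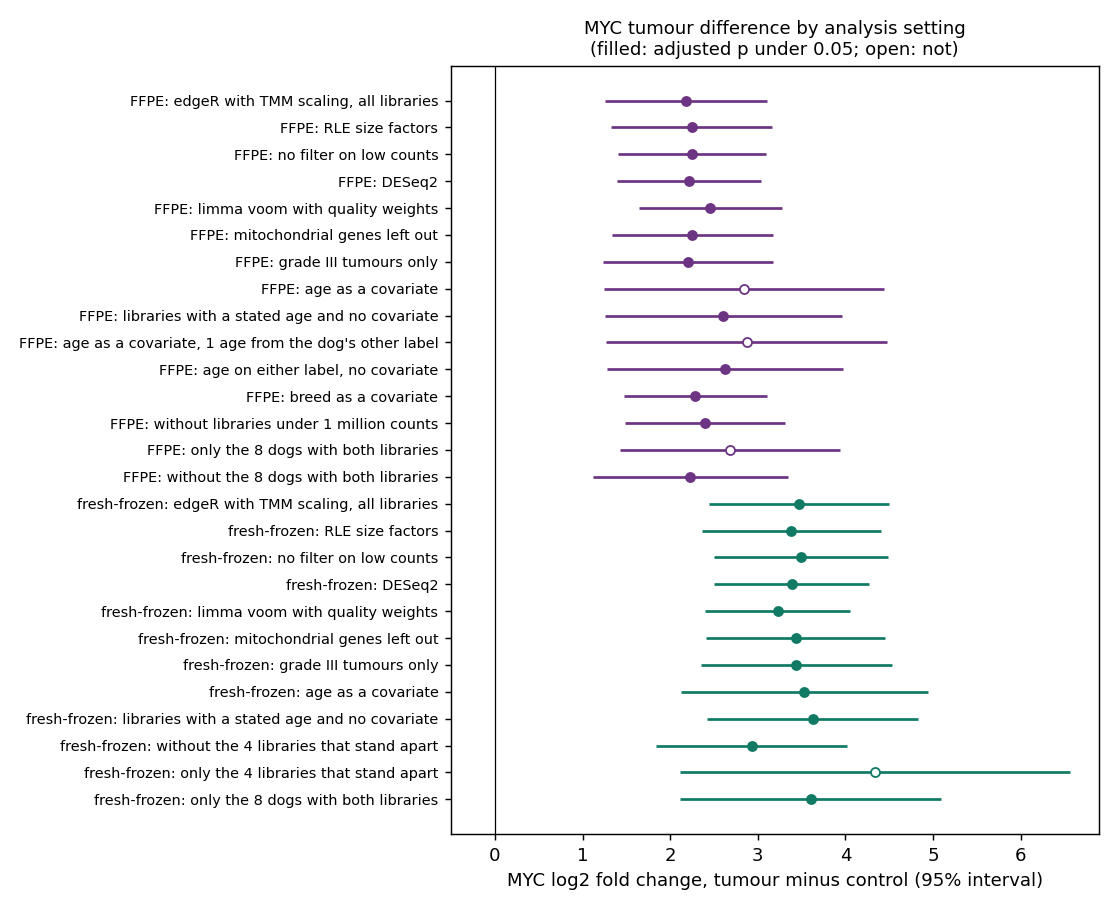
Log2 fold change of MYC (tumour minus control) with its 95% interval under each analysis setting, FFPE in purple and fresh-frozen in green; filled points passed an adjusted p of 0.05 and open points did not. All points lie right of 0, the FFPE values between 2.18 and 2.87 and the fresh-frozen values between 2.93 and 4.34.

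Genes whose level followed that of MYC from dog to dog were sought last, by Pearson's r of log2 CPM after subtraction of the group means, taking the smaller of the values in 21 FFPE and 12 fresh-frozen libraries. Among 13043 genes the most alike was a 2-exon gene on chromosome 10 (32389086 to 32398475), with r of 0.86 in FFPE and 0.90 in fresh-frozen libraries. It ran at medians of 64.7 CPM in fresh-frozen tumours and 23.7 CPM in controls, with a log2 fold change of 1.89 ± 0.31 there (SE; edgeR adjusted p = 0.00199). In FFPE tissue its log2 fold change was 0.55 ± 0.38 (SE; edgeR adjusted p = 0.303). The next was a 12-exon gene on chromosome 20 (2070248 to 2087789; r of 0.85 and 0.84), with log2 fold changes of 0.81 ± 0.28 and 1.88 ± 0.31 in FFPE and fresh-frozen tissue (SE; edgeR adjusted p = 0.0405 and 0.00194).

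The genes that ran most against MYC were lower in fresh-frozen tumours. A 36-exon gene at 4927121 to 5496629 of chromosome 13 itself had r of -0.80 in FFPE and -0.83 in fresh-frozen libraries, and medians of 125 CPM in fresh-frozen tumours and 345 CPM in controls. Its log2 fold change was -1.47 ± 0.35 there and -0.60 ± 0.34 in FFPE (SE; edgeR adjusted p = 0.00903 and 0.203). ENSCAFG00000004544, a 34-exon gene on chromosome 21 (13822304 to 15771954), had r of -0.80 and -0.79, and was lower in tumours by log2 fold changes of -1.19 ± 0.40 in FFPE and -1.89 ± 0.44 in fresh-frozen tissue (SE; edgeR adjusted p = 0.0367 and 0.00825). Without the 4 libraries that lay apart the fresh-frozen values of these genes were -1.57 and -1.99 and no longer passed (edgeR adjusted p = 0.0534 and 0.0504). These 4 genes were picked for their r, which is given as a description. Over the 8 fresh-frozen libraries left without those 4, r was 0.91 and 0.82 for the genes like MYC and -0.85 and -0.74 for those unlike it. The 9-exon neighbour of MYC had r of 0.72 in FFPE and 0.57 in fresh-frozen libraries, or 0.23 without the 4 libraries. The median r was -0.08 and 0.03 over all 13043 genes, and 0.14 and 0.29 over 166 genes of the first 38 Mb of chromosome 13. All of these values share the libraries' depth and scaling.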

How the data were processed

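Total RNA of 33 brain libraries was measured, in groups read from the sample titles with the dog number as the replicate. The deposited values are raw counts of fragments per gene, made by the authors with featureCounts 1.6.0 on the CanFam3.1 assembly with Ensembl release 100 (forward strand option 1, mapping quality at least 10, chimeric pairs left out), per the file headers. The submitters' processing notes also list fastp and STAR. Libraries carried unique molecular identifiers, per the labels, but no source used here tells whether copies were collapsed by them, so amplified copies may be counted and Poisson intervals cover counting error only.

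Counts were fitted with edgeR 4.0.16 under R 4.3.3, by robust quasi-likelihood F tests after filterByExpr and TMM scaling (Benjamini-Hochberg adjustment over all tested genes at 0.05). The fits were FFPE tumour against control, fresh-frozen tumour against control, FFPE against fresh-frozen in 8 dogs with tissue as a covariate, the interaction over 33 libraries, and breed by tissue in FFPE. SE is the log2 fold change divided by the root of F. Log2 CPM used a prior count of 2. Single measures were compared by permutation over libraries (100000 draws for the correlation over 11 tumours, all splits or pairings otherwise). DESeq2 1.42.0 and limma 3.58.1 served as alternatives. Libraries with the same dog number in their titles were taken to come from the same animal, so the dog was also fitted as a block. Their deviations from group means correlated above 0.1 in 7 of 8 dogs. Libraries of different dogs were not correlated in this way, so these values cannot tell whether the pairing is right.

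No pair of libraries in a group was alike enough to be 1 library deposited again (chi-square of 17.2 to 494 per degree of freedom over 130 pairs, each of different dogs). Nothing beyond the dog numbers describes how replicates were taken. The members, lists and tests were chosen with earlier results of these data known. Genes were named by a rule: those meeting the position rule, neighbours within 1 Mb called in both preservations, the 2 nearest tested genes on each side, and the 2 most and 2 least alike. Lists of MYC partners and targets and of cell type markers, fixed by symbol, were not used here because 0 identifiers were paired with a symbol, so the labelled tissue was not checked against markers.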

Additional observations from a re-analysis of the deposited data

Results flagged for a closer look

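Of 19 sets of libraries examined for a single far value, of which chance flags about 1 in 20, 3 held one. The sets share libraries. The FFPE tumours as a whole group were too many for the rule used and were not examined. Among the 10 FFPE controls dog 61478 had a chromosome 13 shift of 0.13, while the next highest was -0.12, and it also had the highest MYC level of the FFPE controls. Dog 50315, the shallowest library, had the highest level of the 9-exon neighbour among FFPE controls, at 5.16 log2 CPM with the next at 4.18, from 12 counts. Among the 6 fresh-frozen controls dog 60516 had the highest log2 CPM of MYC minus that of the 9-exon neighbour, at 0.72 with the next at -0.94, and it was at once the control with the most MYC (12.8 CPM) and the least of the neighbour (7.72 CPM).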

How the results depend on the processing

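The tumour difference of MYC kept its direction in all alternatives. The FFPE call was lost with age as a covariate (log2 fold change 2.84, or 2.87 with the age of dog 60461 from its other label), while the same libraries without the covariate kept it; the cause was not tested. It was also lost in the 8 dogs with both libraries (2.69), and the fresh-frozen call was lost in the 4 libraries that lay apart (4.34), fits with fewer libraries. In Boxers the value passed with DESeq2 only (2.01). With each library left out in turn both tumour calls held, at 2.08 to 2.56 in FFPE and 2.99 to 3.64 in fresh-frozen tissue. The difference between preservations in the same dogs was -0.24 to 0.39 with 1 library left out, above 0 in 2 of 16 cases, of which the highest was without the fresh-frozen tumour of dog 60461, and 0.17 without the 4 dogs whose fresh-frozen libraries lay apart; it passed in none. With the dog as a replicate block it was -0.03 ± 0.27 (SE; edgeR adjusted p = 0.957), and the interaction with the dog as a random block was -0.80, so the block changed no call. Pearson's r with the chromosome 13 shift was 0.51 to 0.87 in FFPE tumours and 0.34 to 0.91 in fresh-frozen tumours with 1 library left out. It lost its FFPE call without dog 44331 or 60127 and passed in fresh-frozen tissue without dog 60749. The cause of these changes was not tested. No neighbour within 1 Mb was called in either preservation, except 1 in FFPE without a filter on low counts, which was lower in tumours. MYC minus the chromosome 13 shift passed in all its alternatives, which share the choice of MYC by a summed count that the tumours decided. The tumour difference of MYC minus the 9-exon neighbour, given as a description, was 2.50 in fresh-frozen tissue without the 4 libraries that lay apart. These settings without the 4 libraries, other than for the fresh-frozen log2 fold change of MYC, and the second age setting were chosen after seeing the data, and the correlation was not repeated in the 4 tumours left. FFPE controls held as few as 13 counts of MYC, which limits their precision.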
